A study of Mus musculus with 20 samples.

Results

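The genes described here are the platelet-derived growth factor (PDGF) and KIT receptor genes and their ligand genes, measured in single cells of the mouse inner cell mass. The 8 genes were chosen by name, as the probe sets annotated to them: the receptor genes Pdgfra, Pdgfrb, Kit and Kdr and the ligand genes Pdgfa, Pdgfb, Pdgfc and Kitl, out of 18193 genes measured. They had 18 probe sets, and each gene is represented by the probe set with the highest mean, with every Pdgfra probe set also shown. The study took blastocysts of C57BL/6 mice at embryonic day 3.5, dissociated their inner cell mass with trypsin, and amplified the cDNA of 55 cells picked at random. A PCR screen kept 50 cells that were positive for Oct4 and negative for the trophectoderm gene Cdx2. The 20 arrays analysed each held the amplified cDNA of 1 cell, all of 1 untreated group, and the labels name no second group to compare it with. The labels tie no cell to an embryo, and cells are named by their replicate number.

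PDGF receptors are receptor tyrosine kinases that dimerise when a PDGF dimer binds. PDGFRA responds to PDGF-A and PDGF-C as well as PDGF-B, and PDGFRB mainly to PDGF-B and PDGF-D. KIT belongs to the same receptor class, and its ligand is stem cell factor, encoded by Kitl. KDR is a receptor for vascular endothelial growth factors and marks endothelial precursors. In the blastocyst, Pdgfra is a known marker of the primitive endoderm, the extraembryonic layer that separates from the epiblast within the inner cell mass.

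Levels are given as log2 of the quantile-normalised intensity plus a pseudocount of 8.48, a scale whose lowest possible value is 3.25. The floor of an array, above which a gene is called present, was set from 144 probe sets for genes that other tissues use, as their 95th percentile, and lay between 6.62 and 7.37. The array of cell 19 had a median deposited intensity of 14.97, against 25.6 to 30.1 in the others, so the differences of Pdgfra and Pdgfa are also given without it. Clustering of the cells on 500 variable genes, without the receptor and ligand genes, their signalling partners or any lineage marker, gave 2 clusters of 10 cells (mean silhouette 0.111, a weak separation). Cells 3, 4, 5, 6, 8, 10, 11, 15, 17 and 20 are called primitive endoderm-like (PrE-like). Of the 10 genes with the largest difference in their favour, 6 were markers of that lineage. The mean level of that lineage's 20 markers lay between 7.99 and 9.27 in these cells and between 5.60 and 7.07 in the other cluster. Not every marker of the list was higher in them. Hnf4a was lower, with a mean of 6.60 (above the floor in 6 cells) against 9.05 (10 cells). Apoe was nearly equal (6.45 and 6.51). Cells 1, 2, 7, 9, 12, 13, 14, 16, 18 and 19 are called epiblast-like, as their 10 leading genes included the epiblast markers Fgf4 and Klf2 and no marker of another list. Cell 16 joined the PrE-like cells when 1000 genes were used or cell 19 was left out, and cell 6 joined the epiblast-like cells when the floor was moved to the 90th or 99th percentile. Among tissues known for these receptors, most blood, endothelial and mesenchymal markers were under the floor in every cell. Blood markers were above it in 0 cells (0 of 5 measured). Of 7 endothelial markers, Pecam1 was above it in 4 cells, Esam in 3, Emcn in 1, and Cdh5, Tek, Tie1 and Vwf in 0. Of 7 mesenchymal markers, Dcn was above it in 19 cells and the others, such as Col1a1 and Prrx1, in 0. Of 4 granulosa and cumulus markers measured, Amh was above it in 6 cells, Foxl2 in 1, and Fshr and Inha in 0. The mean level of the endothelial list lay between 4.04 and 4.87 in the epiblast-like and between 3.91 and 5.42 in the PrE-like cells. Trophectoderm markers above it numbered 8 of 13, with a mean level between 5.41 and 6.96 in the epiblast-like and between 5.99 and 6.88 in the PrE-like cells. They included Cdx2 itself, above the floor in 18 cells at 7.37 ± 0.44 (epiblast-like) and 7.47 ± 0.25 (PrE-like), although cells were screened by PCR to be negative for it. Brightest of the trophectoderm markers was Hand1, above the floor in 20 cells at 13.66 ± 0.08 (epiblast-like) and 13.73 ± 0.07 (PrE-like). The part of these markers in the results was not tested. Differences between clusters are described without a test, since the clusters come from the same cells.

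Of the 8 genes, Pdgfra was the receptor gene that differed between the clusters and Pdgfa was the ligand gene found in both. Pdgfra was above the floor in 15 of 20 cells and Pdgfa in 13. Kdr was above it in 3 cells, by at most 0.31 log2 units. Pdgfrb, Pdgfb, Pdgfc, Kit and Kitl were above it in 0 cells by any of their probe sets. With the floor at the 90th percentile, by the brightest probe set, Pdgfrb (cell 9), Pdgfb (cell 14) and Kitl (cell 5) each passed it in 1 cell, and Pdgfc and Kit in 0. Of the 3 genes that reached 3 cells, 1 (Pdgfra) differed between the clusters by 1 log2 unit or more, where 19.4% of the 9898 genes that passed the same filter did so in either direction.

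**Figure D1:**
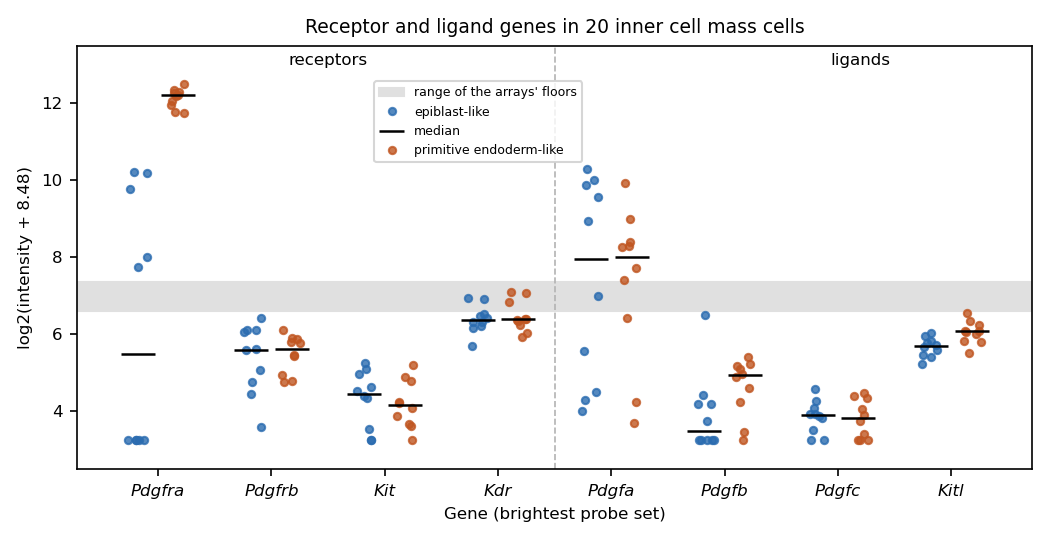
Level of the 4 receptor and the 4 ligand genes in each of the 20 cells by the brightest probe set, on the log2 scale, with the median of each cluster as a bar and the range of the arrays' floors (6.62 to 7.37) in grey. Pdgfra lies between 11.76 and 12.49 in the PrE-like cells, above every epiblast-like cell, and Pdgfa spans the floor in both clusters.

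Pdgfra, which encodes the alpha receptor, was uniformly high in the PrE-like cells. Its deposited intensity there ran from 3433 in cell 6 to 5570.5 in cell 3, and its level was 11.76 at the lowest, 12.20 at the median and 12.49 at the highest. The mean was 12.13 ± 0.24 (SD, n = 10 cells). That evenness was ordinary for a level this high: the median SD among 350 genes within 0.5 log2 units of its mean in these cells was 0.236, and 180 of them had a smaller SD.

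The epiblast-like cells were split in their Pdgfra level. Deposited intensities were 1178 in cell 12, 1162 in cell 2, 828.8 in cell 7, 252 in cell 9 and 204 in cell 1, and 1, the lower limit of the file, in cells 13, 14, 16, 18 and 19. On the log2 scale these were 10.21, 10.20, 9.78, 8.02 and 7.74, and 3.25 in the other 5 cells. So 5 epiblast-like cells carried a Pdgfra signal at intermediate level and the other 5 read the lower limit. By the brightest probe set the clusters did not overlap: the highest epiblast-like cell (10.21) lay 1.54 log2 units under the lowest PrE-like cell. Such a separation was shown by 0.263% of the genes tested in either direction and by 0.162% in this one. This separation held in 10 of 13 settings, the one reported included. It was lost with clusters on 1000 genes and without cell 19, where cell 16 at the lower limit was among the PrE-like cells, and with the mean of all probe sets (a gap of -0.10). It narrowed to 0.03 with the floor at the 90th or 99th percentile, where cell 6 was among the epiblast-like cells. Some settings could not change it. With values raised to the floor, cells split by Fgf4 or no filter on cells above the floor, the same cells and values set the gap. Another pseudocount cannot reorder values while the clusters stay the same. The mean was 6.22 ± 3.24 in the epiblast-like cells, so the difference was 5.92, or 4.15 (17.8-fold) when lower values were raised to the floor, a measure by which 6.68% of genes tested differed by at least 1 in either direction. Without cell 19 it was 4.35, with cell 16 then among the PrE-like cells. By the unraised difference Pdgfra ranked 3 among the 9898 genes for a higher mean in the PrE-like cells, where 7.97% of genes were higher by at least 1 log2 unit. Its SD over all 20 cells (3.77) also ranked 3.

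The 3 Pdgfra probe sets ordered the clusters alike but disagreed on single cells. By probe set 1421916_at, Pdgfra was above the floor in 10 of 10 PrE-like cells, with a lowest level of 7.77, a median of 9.18 and a highest of 10.49, and in 2 epiblast-like cells, cell 2 (8.13) and cell 16 (6.87). The highest epiblast-like value thus passed the lowest PrE-like value by this probe set. By probe set 1438946_at it was above the floor in 7 PrE-like cells and in 0 epiblast-like cells. Over the 10 PrE-like cells its median was 7.62, its highest 8.98 and its lowest 3.25, the lower limit, in cell 6. The highest epiblast-like value was 6.59 in cell 12. It passed the values of PrE-like cells 6, 3 (5.99) and 20 (6.39), so the clusters overlapped by this probe set too. Differences between clusters were 4.11 and 3.42 by these probe sets, and 2.16 and 0.93 with values raised to the floor. All 3 probe sets were above the floor in 7 PrE-like cells and 2 of them in the remaining 3 (cells 3, 6 and 20). Among the epiblast-like cells, cell 2 passed by 2 probe sets, cells 1, 7, 9, 12 and 16 by 1, and cells 13, 14, 18 and 19 by 0. Cells 1, 7, 9 and 12 therefore rest on the brightest probe set alone (cell 12 read 6.59 by 1438946_at, against a floor of 6.62), and with the mean of all probe sets 2 epiblast-like cells were above the floor in place of 5. Within the PrE-like cells, Spearman's rho between the probe sets was 0.32 (1421917_at with 1421916_at), -0.38 (1421917_at with 1438946_at) and 0.04, so the probe sets gave no common order of these 10 cells.

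**Figure D2:**
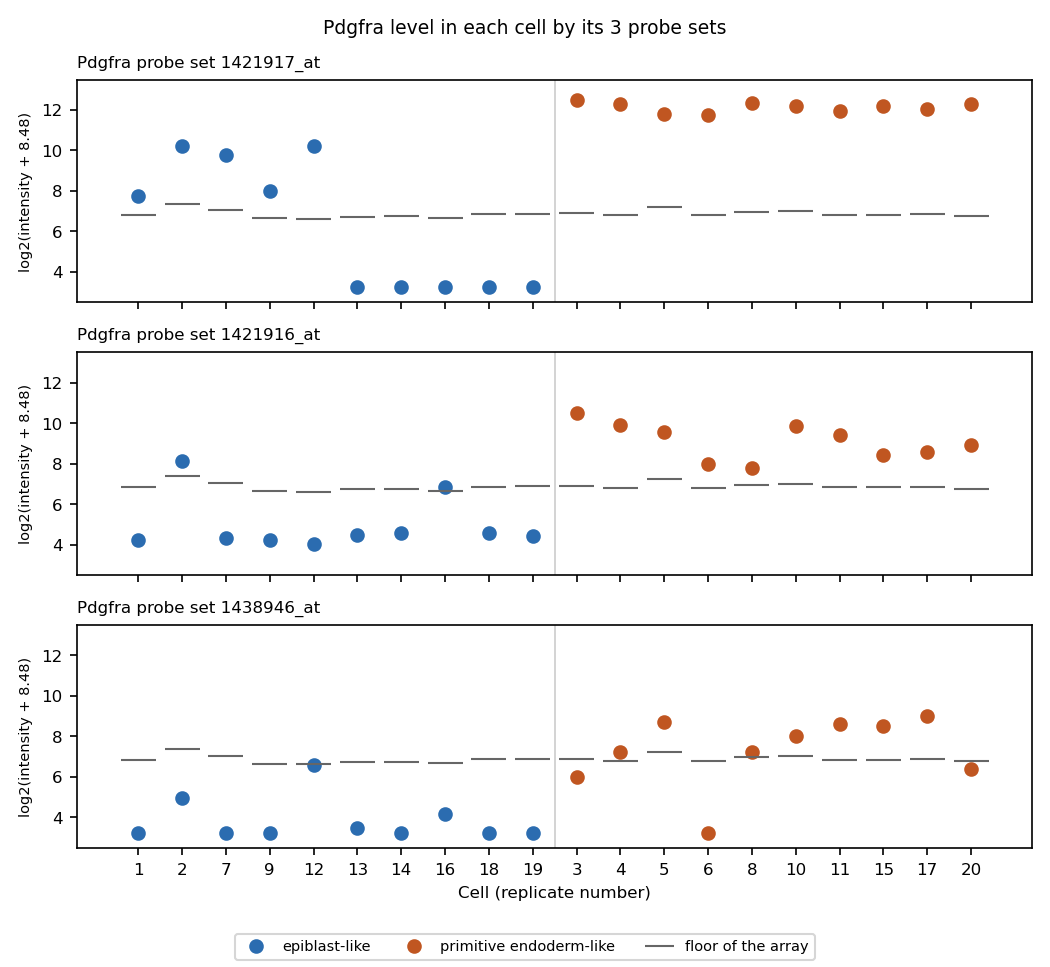
Pdgfra level in each cell by each of its 3 probe sets, on the log2 scale, with the floor of each array as a short line. The PrE-like cells are above the floor in 10, 10 and 7 cases from the top panel to the bottom, and the epiblast-like cells in 5, 2 and 0.

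Among the epiblast-like cells with Pdgfra, 3 endoderm transcription factor genes were present in few. Other genes of the endoderm list were not so restricted: of its 20 genes, 4 (Hnf4a, Lamb1, Lamc1 and Sparc) were above the floor in all 10 epiblast-like cells, 9 in some of them and 7 in 0. Gata6, an endoderm transcription factor gene, was high in cells 2 and 12, the cells with the highest Pdgfra (9.60 and 9.67). It was under the floor in cells 7, 1 and 9 (6.53, 4.72 and 3.25). It was also above the floor in cells 16 (7.93) and 13 (7.31), where the brightest Pdgfra probe set read the lower limit. Sox17, another endoderm transcription factor gene, was above the floor in cell 1 alone among the epiblast-like cells (9.36). Gata4, a further endoderm factor gene, was above it in 0 of them, with a highest value of 5.06 in cell 2. Over the 20 cells, Pdgfra was above the floor without Gata4 in 5 cells, without Sox17 in 4 and without Gata6 in 3, while Gata4 and Sox17 were above it without Pdgfra in 0 cells and Gata6 in 2. Of the 12 epiblast genes, 8 were above the floor in all 10 epiblast-like cells and 4 (Prdm14, Otx2, Enox1 and Bmp4) in some. Utf1, Esrrb, Tdgf1 and Dppa5a of the 8 were above it in all 10 PrE-like cells too. Bmp4 was above it in 7 PrE-like and 6 epiblast-like cells. Among the 8, Nanog lay between 11.93 and 12.44, Sox2 between 11.43 and 12.45 and Fgf4 between 10.64 and 12.21 in all 10 epiblast-like cells. The lowest Fgf4 values of the cluster were those of cells 12 and 2. In the PrE-like cells Pdgfra was together with Nanog above the floor in 7 cells and with Sox2 in 8, and with Fgf4 in 0.

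**Figure D3:**
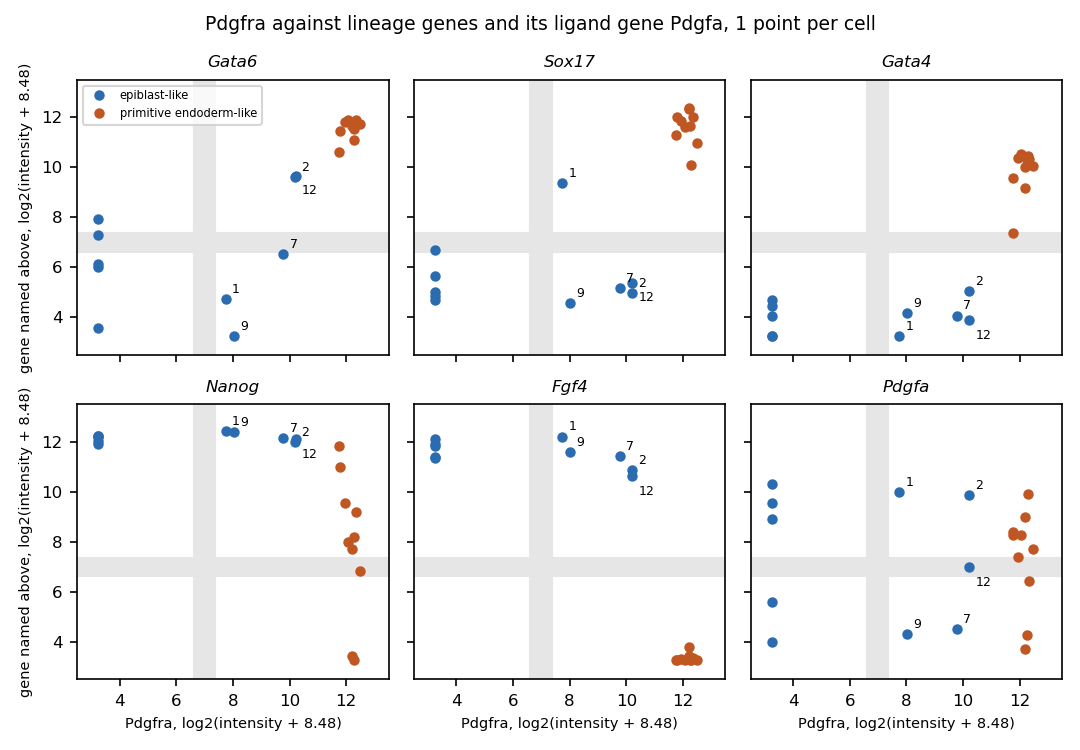
Pdgfra level (horizontal) against the level of 5 lineage genes and of Pdgfa (vertical) in each of the 20 cells, on the log2 scale, with the range of the arrays' floors in grey and the epiblast-like cells with Pdgfra numbered. Cells 2 and 12 combine Pdgfra at 10.20 and 10.21 with Gata6 at 9.60 and 9.67, and the other 3 numbered cells have Gata6 under the floor.

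Pdgfa, which encodes the PDGF-A chain, was above the floor in some cells and under it in others in both clusters. A reading under the floor gives a limit and does not show that the transcript is absent from that cell. Among the epiblast-like cells it was 10.29 in cell 19, 9.999 in cell 1, 9.88 in cell 2, 9.56 in cell 14, 8.93 in cell 18 and 6.99 in cell 12. It was under the floor in cells 16 (5.58), 7 (4.50), 9 (4.29) and 13 (4.01). Among the PrE-like cells it was 9.93 in cell 4, 8.99 in cell 10, 8.41 in cell 5, 8.29 in cell 17, 8.27 in cell 6, 7.73 in cell 3 and 7.41 in cell 11. It was under the floor in cells 8 (6.42), 20 (4.25) and 15 (3.71). The clusters overlapped over nearly their whole range, with means of 7.40 ± 2.61 and 7.34 ± 2.0 (SD, n = 10 cells each), a difference of -0.06 (-0.09 without cell 19). The difference stayed within the spread between cells under every alternative setting (-0.42 to 0.11). The other Pdgfa probe set was above the floor in 1 cell, cell 4 (6.83), so the presence of Pdgfa rests on probe set 1418711_at, and with the mean of both 8 cells passed in place of 13.

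**Figure D4:**
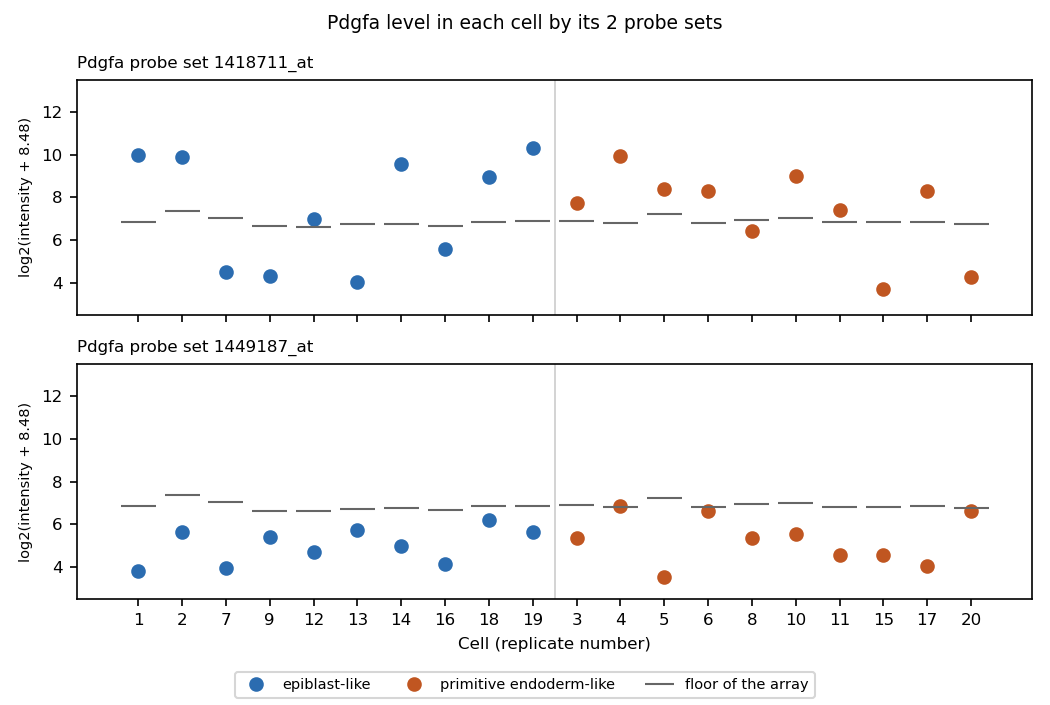
Pdgfa level in each cell by each of its 2 probe sets, on the log2 scale, with the floor of each array as a short line. By the brighter probe set 6 epiblast-like and 7 PrE-like cells are above the floor, and by the other 0 and 1.

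By their brightest probe sets, receptor and ligand gene were found both together and apart. Pdgfra and Pdgfa were both above the floor in 10 cells, Pdgfra alone in 5 (cells 7, 8, 9, 15 and 20), Pdgfa alone in 3 (cells 14, 18 and 19) and neither in 2 (cells 13 and 16). Of the cells with both, 7 were PrE-like and 3 (cells 1, 2 and 12) epiblast-like. Thus each of the 4 combinations occurred among the epiblast-like cells, and the cells with Pdgfa alone were all epiblast-like. In the PrE-like cells, where Pdgfra was present throughout, the combinations differed in Pdgfa alone. These calls depend on the probe set. Cell 16 passed by Pdgfra probe set 1421916_at (6.87), and cells 1, 7, 9 and 12 passed by the brightest alone.

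The remaining receptor genes gave little or no signal above the floor. Kdr was nearly constant, from 5.70 to 7.10 over the 20 cells, and its cluster means were 6.40 ± 0.36 (epiblast-like) and 6.47 ± 0.40 (PrE-like). It passed the floor of its array in cells 3, 18 and 20 (7.10, 6.92 and 7.07), and the count was 0 with the floor at the 99th percentile and 13 with it at the 90th. Kit ranged from 3.25 to 5.26, at least 1.48 log2 units under the floor in every cell, and its other probe set reached 5.35. Pdgfrb, the beta receptor gene, ranged from 3.6 to 6.42, and its other probe set read the lower limit of the file in 17 cells.

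The remaining ligand genes were likewise under the floor. Kitl, by the brightest of 4 probe sets, ranged from 5.24 to 6.55, and its means of 5.67 ± 0.25 and 6.05 ± 0.30 differed by 0.38, too dim for a fold. By another Kitl probe set cell 13 read 6.67, within 0.06 of its floor. Pdgfb ranged from 3.25 to 6.51, with its highest value in cell 14, and Pdgfc from 3.25 to 4.57. For genes under the floor in every cell these arrays give a limit and do not show that the transcript is absent.

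The 250 bases before 1 transcript start of Pdgfra and 2 of Pdgfa are shown because these are the 2 genes of the set with a clear signal, one following the clusters and the other not. The sequences are from RefSeq (build GRCm38.p6), and the set of windows used held 6 of the 8 genes. They are read 5′ to 3′ on the strand of the gene. Matches to GATA (the core of the letters bound by GATA factors) or to the GC box CCGCCC, searched on both strands, are in capitals. The windows are chr5:75152001-75152250 (plus strand) for Pdgfra, and chr5:138994282-138994531 and chr5:138994945-138995194 (minus strand) for the 2 Pdgfa windows of the table used. All 3 lie inside the annotated genes, which reach further upstream, so other annotated starts are not covered.
Pdgfra: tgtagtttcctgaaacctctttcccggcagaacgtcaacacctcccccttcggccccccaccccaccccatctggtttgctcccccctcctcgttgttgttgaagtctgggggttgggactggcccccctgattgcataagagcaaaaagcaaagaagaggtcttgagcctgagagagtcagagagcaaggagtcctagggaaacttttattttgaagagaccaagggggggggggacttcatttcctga
Pdgfa start 1: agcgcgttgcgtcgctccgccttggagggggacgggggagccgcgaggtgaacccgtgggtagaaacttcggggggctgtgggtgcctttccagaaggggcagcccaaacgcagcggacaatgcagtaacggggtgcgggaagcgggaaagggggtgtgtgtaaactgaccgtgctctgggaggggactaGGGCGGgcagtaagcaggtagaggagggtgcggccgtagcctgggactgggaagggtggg
Pdgfa start 2: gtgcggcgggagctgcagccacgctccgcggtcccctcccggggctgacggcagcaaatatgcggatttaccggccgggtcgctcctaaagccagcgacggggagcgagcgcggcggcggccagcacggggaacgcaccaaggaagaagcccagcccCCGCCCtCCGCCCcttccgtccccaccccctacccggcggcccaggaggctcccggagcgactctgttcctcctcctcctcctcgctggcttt
The Pdgfra window held 0 matches to GATA and 0 to CCGCCC, where 53.6% and 32.7% of 32851 RefSeq windows of this length held at least 1. The Pdgfa windows held 0 matches to GATA, and 1 and 2 matches to CCGCCC. Their share of G and C was 66.4% and 72.4%, against 54.4% for Pdgfra and a median of 52.4% over all windows. No match says only that these letters are not in this window.

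Genes with the level pattern most like that of Pdgfra were taken by Spearman's rho over the 20 cells, among the 9898 genes tested. The value follows mainly the difference between clusters, so rho within each cluster of 10 cells is given with it. The 10 highest were B3gnt7 (0.88), Shisal2b (0.88), Pth1r (0.87), Snx2 (0.86), Amot (0.85), Gata6 (0.85), Rhpn1 (0.84), Arcn1 (0.84), Dlc1 (0.84) and Pfkl (0.82). For Pth1r, the parathyroid hormone receptor gene, rho was 0.86 within the epiblast-like cells and 0.08 within the PrE-like cells. Pth1r passed the floor in all 10 PrE-like cells and in 2 epiblast-like cells, so the first value ranks mostly readings under the floor. Dlc1 had 0.72 and 0.32, and the glycosyltransferase gene B3gnt7 0.61 and 0.53. Gata6 had 0.38 and 0.35. The sorting nexin gene Snx2 had 0.56 and 0.27, and Amot, an angiomotin gene of the Hippo pathway, 0.52 and 0.21. For Shisal2b, Rhpn1, the coatomer gene Arcn1 and the phosphofructokinase gene Pfkl, rho was 0.68 to 0.70 within the PrE-like cells and -0.03 to 0.37 within the epiblast-like cells. Rhpn1 passed the floor in 0 and Pfkl in 1 of the epiblast-like cells. The 5 lowest were Tpd52 (-0.86), Stk38 (-0.86), Ino80d (-0.85), Atg16l2 (-0.85) and Nanog (-0.85). For Nanog, rho with Pdgfra was -0.65 within the PrE-like cells and -0.08 within the epiblast-like cells. Cells share the array's normalisation, and 5 tied Pdgfra values at the lower limit enter each rho over the 20 or the epiblast-like cells. Within the PrE-like cells the SD of Pdgfra was only 0.24, and its 3 probe sets gave no common order of the cells. Values of rho there rest on the brightest probe set alone.

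The genes nearest in pattern to Pdgfa differed between the cluster means by less than 1 log2 unit. They were the zinc transporter gene Slc39a14 (rho 0.80), the RNA polymerase subunit gene Polr2f (0.76), the Mediator gene Med13l (0.75), Etl4 (0.73) and Utp14a (0.70). Slc39a14 had rho 0.83 within the epiblast-like and 0.78 within the PrE-like cells. Pdgfa hardly differed between the clusters, so these values largely follow from the choice over the same cells and are no separate support. For Kdr the nearest were Mthfd1l (0.77), Ube2d2a (0.73), Heatr3 (0.72), Hnrnpk (0.72) and Zfp931 (0.72), over a Kdr range of 1.40 log2 units around the floor. The genes near Pdgfa and Kdr were picked as the highest among 9898 genes. Whether chance gives such values of rho was not tested.

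The wider signalling list held 72 genes, of which 64 had a probe set annotated to them alone and 46 were above the floor in at least 3 cells. The other 8 were not analysed here. Of the 46, 5 had a mean at least 1 log2 unit higher in the PrE-like and 1 in the epiblast-like cells, where 7.97% and 11.4% of all genes tested did. The median difference was -0.01, against -0.04 over all genes tested. With values raised to the floor the counts were 2 and 1, against 2.97% and 3.71%.

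Receptors and ligands related to these genes were mostly dim. Csf1r, of the same class as Pdgfra and Kit, was above the floor in 19 cells at 7.51 ± 0.40 and 7.69 ± 0.25 (epiblast-like, then PrE-like), with a highest value of 8.04. Flt1, Flt3 and Flt4 were above it in 0 cells by any probe set. The coreceptor genes Nrp1 and Lrp1 were above it in 0 cells, and Nrp2 in 0 by its brightest and 4 by another probe set. Of the ligand genes, Vegfa was above it in 20 cells (7.47 ± 0.30 and 7.37 ± 0.09), Vegfc in 12 (6.70 ± 2.52 and 6.53 ± 2.58), Csf1 in 11, Vegfb in 4, Il34 in 3 and Vegfd in 1. Pdgfd, the remaining PDGF ligand gene, and Pgf were above it in 0.

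The 6 genes past 1 log2 unit were genes of ligand processing or downstream signalling, 5 higher in the PrE-like and 1 in the epiblast-like cells. Over all genes tested, 7.97% and 11.4% were so. Each of the 6 differed by less than the larger SD between cells. Higher in the PrE-like cells were Spry4, an inhibitor of receptor tyrosine kinase signalling (7.01 ± 2.01 against 5.02 ± 2.24), the small GTPase gene Nras (10.09 ± 0.53 against 8.45 ± 1.71) and the ubiquitin ligase gene Cblb (6.40 ± 2.77 against 4.77 ± 2.32). So were Furin, a protease gene whose product cleaves PDGF precursors (8.34 ± 1.45 against 6.77 ± 1.65), and the kinase gene Braf (8.19 ± 2.11 against 6.82 ± 2.61). With values raised to the floor, Nras (1.42) and Furin (1.11) kept a difference of at least 1, and Spry4 (0.54), Cblb (0.67) and Braf (0.75) did not. Higher in the epiblast-like cells was the adaptor gene Grb2 (9.06 ± 0.96 against 7.64 ± 1.62, and a difference of -1.01 with values raised). Of 24 adaptor and effector genes tested, 21 differed by less than 1. The phosphatase gene Ptpn11 (10.66 ± 0.70 and 10.95 ± 0.50), Plcg1 (9.78 ± 0.67 and 9.83 ± 0.53) and Stat3 (9.89 ± 0.64 and 10.10 ± 0.71) were above the floor in all 20 cells. Furin, Braf and these 3 were named after their values were seen.

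**Figure D5:**
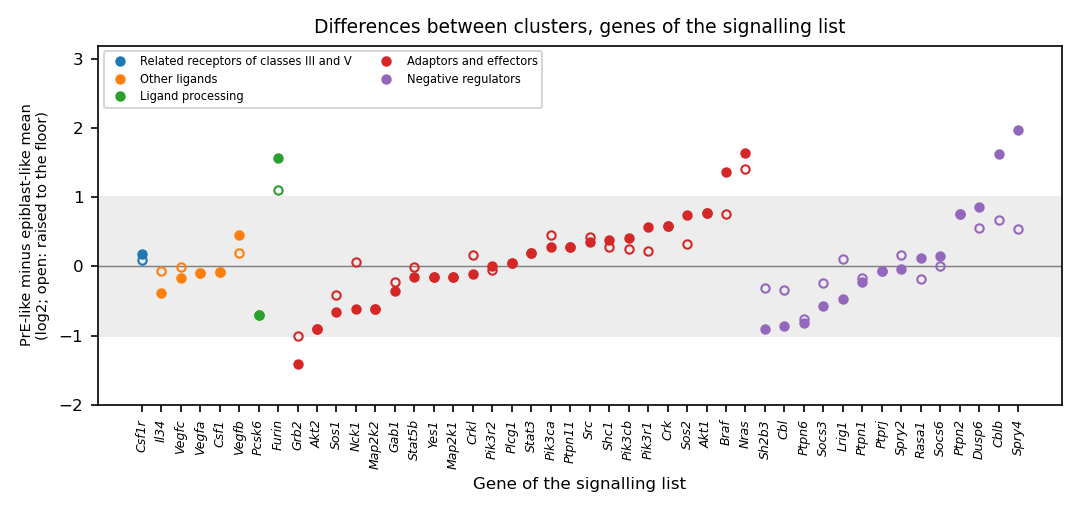
Difference between the mean levels of the PrE-like and epiblast-like cells (log2) for the 46 tested genes of the signalling list, by role. Filled points use values as read and open points values raised to the floor. The grey band spans differences under 1, and 6 filled and 3 open points lie outside it.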

How the data were processed

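Transcript levels of 20 single cells were measured on Affymetrix mouse arrays. Crude lysate of a single cell went into cDNA synthesis and PCR amplification, and biotin-labelled cRNA was made from the product, per the labels' protocols. The authors deposited 1 linear intensity for each probe set and cell. Intensities reached 26616, and 10.1% to 13.4% of an array's values were 1, the lowest. How probes were summarised, and whether arrays were normalised, is not given in the sources used here. Any pair of arrays shared 1798 to 2193 exactly equal values above 1, of 37915 to 39457 distinct values per array.

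Of 45101 probe sets, 64 controls were left out, 34945 of the others were annotated by GEO's platform table to 1 gene, 932 to several and 9160 to none, and 34741 matched RefSeq (GRCm38.p6) by Entrez identifier. The trimmed array means (2% off each end, 181.3 to 219.8) lay over 5% apart, so values were quantile-normalised, and the pseudocount was the arrays' 25th percentile (median of 20). The 9898 genes that passed the floor in 3 or more cells are those called tested. They were read against thresholds only, with no p-value. Clusters came from Ward's method, with 2 to 5 clusters tried (scipy 1.17.1, scikit-learn 1.9.0, numpy 2.4.6), on genes of high variance for their mean level. The steps were tested on simulated data. The named genes were the 8 genes, their near relatives, the 3 downstream genes with the largest difference in each direction past 1 log2 unit, the 10 highest and 5 lowest rho with Pdgfra, the 5 highest with Pdgfa and Kdr, and 6 lineage genes. Members and lists were chosen with earlier results of these data known, and the Pdgfra difference is not independent support for the clusters. SDs cover only the spread between these cells.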

Additional observations from a re-analysis of the deposited data

Results flagged for a closer look

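Within the clusters, the highest or lowest cell was compared with its neighbour for each of the 8 genes, 16 comparisons in all, and chance alone marks about 1 in 20. In 1 of them the highest cell stood apart: Pdgfb in cell 14 read 6.51, against 3.25 to 4.43 in the other epiblast-like cells. That value was still under the floor of its array, so it was not counted as present.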

How the results depend on the processing

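Over 12 alternative settings, 178 of 195 values stayed within the spread between cells or within 1.5 times the main count. Some of these values could not change. Splitting the cells by Fgf4 gave the same 10 and 10 cells, and counts made over all 20 cells do not depend on the clusters. Signs were followed for the differences of the 8 genes and for the median of the signalling list. Only the Pdgfra difference was at least 1 log2 unit in the main setting, and it kept its sign. The 6 signalling genes past 1 log2 unit were followed as counts only. Among the smaller differences, 17 values changed sign: the median of the signalling list (-0.01) in 11 settings, and Pdgfrb, Pdgfa, Kit and Pdgfc, all of at most 0.14 in size. With values raised to the floor, Kit and Pdgfc both gave 0.06. That value is the difference between the clusters' mean floors and no reading of these genes. The Pdgfra difference ran from 4.15 (values raised to the floor) to 7.05 (pseudocount from the 10th percentile), and was 4.35 without cell 19, 5.59 without cell 16, 5.89 on deposited values and 4.48 with the mean of all probe sets. Pdgfra was above the floor in 12 to 15 cells. The count of signalling genes past 1 log2 unit was 6, and 3 with values raised to the floor, which shrinks the differences of dim genes by construction. The count higher in the epiblast-like cells was 1, and 3 without cell 16, 3 without cell 19, 3 with the lower pseudocount, 4 with clusters on 1000 genes, and 2 with the mean of all probe sets or the floor at the 90th or 99th percentile; the cause was not tested. With the mean of all probe sets, the count higher in the PrE-like cells was 2. With the floor at the 90th percentile, 2 of the 8 genes had no cell above it in place of 5. Signal over the floor and 20 arrays limit what can be seen. No paired analysis was possible because the labels give a single group.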

Other observations

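Pdgfra, Kit and Kdr are neighbours on mouse chromosome 5, in that order with no other protein-coding gene between them in RefSeq (GRCm38.p6). Only Pdgfra of the 3 differed between the clusters by 1 log2 unit or more. The 4 protein-coding genes on either side were looked up after the values of the 3 were seen. Of these 8, 5 were above the floor in at least 3 cells. Chic2, the gene 2 places before Pdgfra, was higher in the PrE-like cells (11.28 ± 0.46 against 9.75 ± 1.40, SD, n = 10 cells each, difference 1.5 with values raised to the floor). The other 4, Fip1l1, Tmem165, Srd5a3 and Clock, differed by less than 1, and Gsx2 and Lnx1, which lie next to and 3 places before Pdgfra, were above the floor in 0 cells, as was Pdcl2. Of all genes tested, 2.97% were higher in the PrE-like cells by this measure.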
